A study of Mus musculus with 36 samples.

Results

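The libraries described here were chosen from their labels alone and are all those in which dendritic cells received the ligand labelled PAM together with 1 of 4 partners. The partner was Sendai virus (SeV; the pair is PS), 3',3'-cGAMP (PcG), LPS (PL) or the ligand labelled HMW (PH). Each pair has 2 libraries, so 8 of the 36 libraries of the series were used, in all 6 possible comparisons and without the unstimulated control. PAM and HMW are given as labelled.

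All cells were bone marrow-derived dendritic cells (BMDCs) from female C57BL/6J mice aged 6 to 8 weeks, grown in GM-CSF at 15 ng/mL and stimulated for 6 h, and the labels name no genetic change in any of the 4 groups. BMDC cultures in GM-CSF are a mixed model that also holds macrophage-like cells. In bulk libraries, fewer cells with an open site and less opening per cell cannot be told apart. Open chromatin was read by ATAC-seq, where transposase cuts and tags accessible DNA, from 50000 lysed cells per library with 12 cycles of PCR. Since the labels do not say whether replicates came from separate cultures or mice, p-values measure the spread between these libraries, which may be technical.

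As background, Sendai virus, cGAMP and LPS are sensed by different receptors. Sendai virus is an RNA virus detected in the cytosol by RIG-I, which signals through MAVS; cGAMP is a cyclic dinucleotide bound by STING; LPS is bacterial lipopolysaccharide, which engages TLR4 and signals through MyD88 and TRIF. RIG-I and STING signalling converge on the kinase TBK1 and the factor IRF3, which together with NF-κB switch on interferon-β. TLR4 signalling reaches NF-κB and AP-1 through MyD88 and IRF3 through TRIF, so the partners share outputs but weigh them differently.

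Values are library-size-scaled counts (CPM), from counts in peaks outside the mitochondrial genome with TMM factors, for peaks of mm10 shared by all libraries. A peak was called when the edgeR quasi-likelihood test gave a Benjamini-Hochberg adjusted p under 0.05 over all 119464 tested peaks. Counts outside the mitochondrial peak ran from 9593847 (PL replicate 2) to 21985891 (PS replicate 2). Replicates correlated at r of 0.958 for PS, 0.952 for PcG, 0.928 for PL and 0.948 for PH across peaks, and libraries of different pairs at 0.914 to 0.954. PL replicate 2 stood apart on the second principal component (score of -145.52, where the other 7 libraries lay between -1.04 and 64.88), and PL replicate 1 on the third (-120.59, where the other 7 lay between -6.9 and 68.36). The share of counts in the mitochondrial peak was 46.6% and 45% in PS and 44.5% and 45.7% in PcG, below 49.4% and 53.8% in PL and 48.7% and 52% in PH. The part of this share in the results was not tested. Without PAM it was 47.1% and 48.7% for SeV and 45% and 47.3% for cGAMP. For LPS it was lower than for SeV, at 44.6% and 44.1%, and for HMW it was highest, at 49.9% and 53.4%. Of the dendritic cell markers 7 of 8 had a tested peak (Cd209a had none), and none of those differed among the pairs in a joint test of all 4. Of 6 macrophage markers 4 differed, where the joint test called 6.83% of all tested peaks. The 6 macrophage markers had a summed level of 149 to 155 CPM in PS, 151 to 153 in PcG, 143 to 145 in PL and 135 to 141 in PH. The 2 B cell markers with a peak summed to 8.96 to 9.35 CPM in PS, 5.8 to 8.87 in PcG, 5.2 to 6.39 in PL and 5.17 to 5.72 in PH, and the 2 neutrophil markers with one to 34.1 to 34.7, 33.8 to 36.8, 29.1 to 33.1 and 39 to 39.3. The 1 erythroid marker with a peak, Klf1, read 13.7 to 15.1 in PS and 9.26 to 11.8 in the other pairs. The part of these markers in the results was not tested. None of 6 markers of T and NK cells had a peak, nor did the neutrophil genes S100a9, Ly6g, Elane, Mpo and Cxcr2.

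The partner split the 8 libraries into PS with PcG and PL with PH. Within those couples few peaks differed: 154 between PS and PcG (0.129% of tested peaks, 96 or 0.0804% higher in PS and 58 or 0.0486% lower) and 52 between PL and PH (0.0435%, 17 or 0.0142% higher in PL and 35 or 0.0293% lower). Across the couples PS differed from PH at 8213 peaks (6.87%, 4571 or 3.83% higher in PS and 3642 or 3.05% lower) and from PL at 4157 (3.48%, 2735 or 2.29% higher and 1422 or 1.19% lower). PcG differed from PH at 3228 (2.7%, 1640 or 1.37% higher and 1588 or 1.33% lower) and from PL at 1084 (0.907%, 709 or 0.593% higher and 375 or 0.314% lower). A joint test of all 4 pairs called 8160 peaks (6.83%). Scaling by total counts alone raised the share of called peaks that were higher from 55.7% to 69.8% for PS against PH, 65.8% to 82.1% for PS against PL, 50.8% to 76.8% for PcG against PH and 65.4% to 87.4% for PcG against PL. Leaving out any 1 library of the pairs compared, which lowers the number of samples, left 2609 (without PH replicate 2) to 4767 peaks for PS against PH, 1305 (without PS replicate 2) to 2081 for PS against PL, 646 (without PH replicate 2) to 1597 for PcG against PH, 240 (without PL replicate 1) to 518 for PcG against PL and 21 (without PcG replicate 2) to 47 for PS against PcG. For PL against PH it left 3 without PH replicate 1, 10 without PL replicate 2, 14 without PH replicate 2 and 59 without PL replicate 1, while the DESeq2 Wald test called 141. The first principal component, with 27.6% of the variance, placed PS at 92.32 and 89.35, PcG at 51.62 and 54.06, PL at -68.06 and -57.37, and PH at -71.33 and -90.59, so PS and PcG lay on one side, with PcG nearer to the middle, and PL and PH on the other.

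Low counts within a couple do not show that its 2 pairs act alike. At an unadjusted p under 0.05 there were 8367 peaks for PS against PcG and 9245 for PL against PH, where about 5973 would pass with no difference at any peak. Differences that repeat in both replicates gave the same order as the calls. The covariance across peaks of the replicate 1 and the replicate 2 difference (log2 CPM squared), a measure of repeatable size, was 0.173 for PS against PH, 0.127 for PS against PL, 0.116 for PcG against PH, 0.0718 for PcG against PL, 0.0452 for PS against PcG and 0.0311 for PL against PH. Differences from libraries that share none with each other also pointed the same way across the split: PS minus PL correlated with PcG minus PH at r = 0.317 across peaks, whereas PS minus PcG and PL minus PH gave 0.0116. Peaks of 1 genome are not independent, and these values are descriptions.

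**Figure D1:**
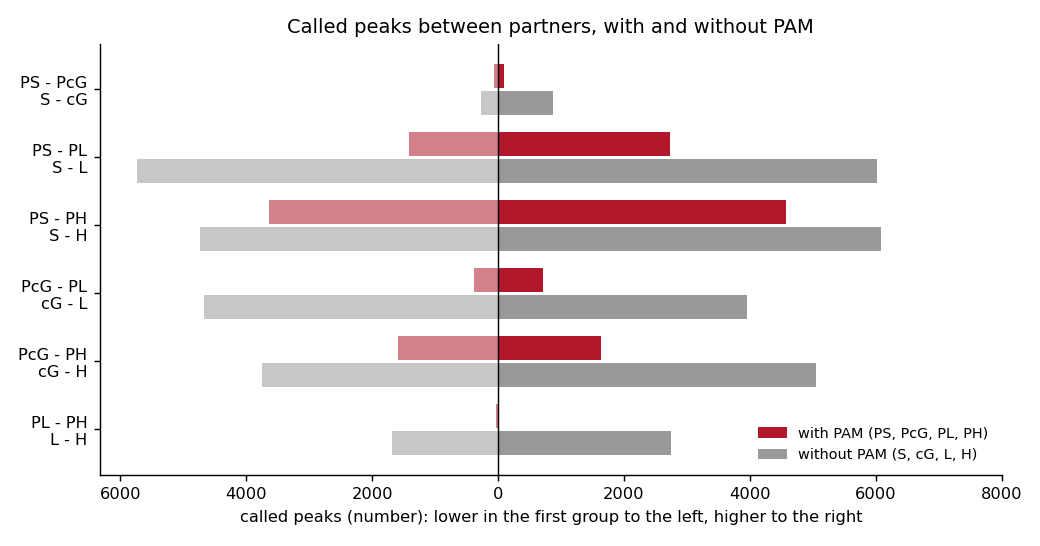
Number of called peaks (x axis) in each comparison between partners, to the right when higher in the first group and to the left when lower. Red bars are the pairs with PAM and grey bars the same partners without PAM; PS against PcG (154) and PL against PH (52) have the shortest red bars.

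Summed over pairs and directions, only 144 peaks set 1 pair apart from each of the other 3, and PS accounted for 113 of them. The peaks chr11:78959292-78963606 and chr7:46710262-46713566 enter this sum both as lower in PS and as higher in PL. In PS 75 peaks were higher (0.0628%) and 38 lower (0.0318%) than in all 3 other pairs. PH had 15 higher (0.0126%) and 4 lower (0.00335%), PL 6 higher (0.00502%) and 3 lower (0.00251%), and PcG none higher and 3 lower (0.00251%). In contrast, 272 peaks were higher in both PS and PcG than in both PL and PH (0.228%) and 97 were lower (0.0812%), a count chosen after the 6 comparisons were seen. The other ways of coupling the pairs gave 0 peaks (PS and PL against PcG and PH) and 1 higher and 1 lower (PS and PH against PcG and PL). Single libraries moved these counts: the 75 became 14 without PS replicate 1, 23 without PS replicate 2, 19 without PcG replicate 1 and 17 without PcG replicate 2, and the 38 became 2 to 25 without PS replicate 1 or 2, PcG replicate 1 or 2, PL replicate 1 or PH replicate 2. The 272 became 73 to 162 without PS replicate 2, PcG replicate 1 or 2, PL replicate 1 or 2, or PH replicate 2, and the 97 became 22 to 62 without any 1 library but PH replicate 1.

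Type I interferon genes were the most virus-dependent group. Interferon-β and the interferon-α genes are secreted antiviral signals that sit in 1 cluster on chromosome 4, and of the 5 with a listed peak 3 were higher in PS than in PcG, 3 than in PL and 4 than in PH, with none lower. Across the whole list the median log2 difference was 1.60, 1.61 and 2.12, against 0.01, 0 and 0.01 over all tested peaks. No interferon gene of the list passed a test among PcG, PL and PH.

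Not every α gene passed a test, and the α genes were not compared with each other. The promoter windows are shown because the α genes share a near-identical element. Each is the 250 bases before the RefSeq start (GRCm38.p6), with matches on either strand to the IRF element (GAAA, any 2 bases, GAAA), which interferon regulatory factors bind, in capitals.
Ifna4 (chr4:88841566-88841815, plus strand): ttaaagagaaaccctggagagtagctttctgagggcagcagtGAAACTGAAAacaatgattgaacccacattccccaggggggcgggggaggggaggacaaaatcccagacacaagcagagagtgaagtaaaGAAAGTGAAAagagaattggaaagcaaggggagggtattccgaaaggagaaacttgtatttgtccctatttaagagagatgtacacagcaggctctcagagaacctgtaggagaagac
Ifna2 (chr4:88683780-88684029, minus strand): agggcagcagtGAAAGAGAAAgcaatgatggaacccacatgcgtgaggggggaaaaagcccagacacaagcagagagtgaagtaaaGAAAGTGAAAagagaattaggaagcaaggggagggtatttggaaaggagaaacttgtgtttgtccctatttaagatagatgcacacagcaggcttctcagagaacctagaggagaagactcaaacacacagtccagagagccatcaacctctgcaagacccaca
Ifna5 (chr4:88835275-88835524, plus strand): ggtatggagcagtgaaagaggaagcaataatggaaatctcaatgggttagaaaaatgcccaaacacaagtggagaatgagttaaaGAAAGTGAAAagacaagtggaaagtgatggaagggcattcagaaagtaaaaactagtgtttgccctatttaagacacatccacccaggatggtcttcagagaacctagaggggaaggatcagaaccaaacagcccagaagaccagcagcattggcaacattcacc
Ifna1 (chr4:88849837-88850086, plus strand): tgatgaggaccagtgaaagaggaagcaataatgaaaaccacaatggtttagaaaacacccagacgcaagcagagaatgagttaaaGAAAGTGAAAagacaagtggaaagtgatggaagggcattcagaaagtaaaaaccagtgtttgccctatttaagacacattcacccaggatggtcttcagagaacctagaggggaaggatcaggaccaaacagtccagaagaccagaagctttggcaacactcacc
Ifnb1 (chr4:88522795-88523044, minus strand): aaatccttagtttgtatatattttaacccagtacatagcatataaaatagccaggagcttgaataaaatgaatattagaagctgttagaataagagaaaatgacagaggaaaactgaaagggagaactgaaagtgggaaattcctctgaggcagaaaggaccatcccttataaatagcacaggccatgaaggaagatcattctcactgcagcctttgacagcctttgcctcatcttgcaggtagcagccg
All 4 α windows hold the match with letters GAAAGTGAAA, and Ifna4 and Ifna2 hold another. The Ifnb1 window holds no match to these letters. Over all 9966 promoters whose start lies in a tested peak 3.33% hold a match from 250 bases before to 50 after the start. Among those in peaks higher in PS than in PcG it was 2 of 16 (12.5%). These 2 are Ifna2 and Ifna5, printed above, so the share adds nothing to their windows. For peaks higher in PS than in PL it was 8 of 230 (3.48%) and for PS over PH 18 of 783 (2.3%). A match describes letters, not a bound site.

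At Ifnb1 the peak just beyond the gene, chr4:88519372-88521906 and 119 bases from it, read 22.3 and 17.7 CPM in PS, 5.96 and 4.65 in PcG, 3.73 and 4.48 in PL, and 4.47 and 2.02 in PH. Both PS libraries lay above the other 6, by 1.9 ± 0.21 (log2, standard error) over PcG (adjusted p = 1.92e-11), 2.29 ± 0.23 over PL (3.36e-15) and 2.64 ± 0.23 over PH (7.6e-20). The peak over the Ifnb1 start, chr4:88522158-88523152, read 8.66 and 7.63 CPM in PS and from 1.89 to 3.87 in the other 6 libraries, 1.64 ± 0.28 higher in PS than in PcG (log2, adjusted p = 0.000178). With SeV but no PAM, the peak beside Ifnb1 had a mean of 21.6 CPM, and with PAM alone 1.26 CPM. cGAMP without PAM read 8.04 and 8.46 CPM there, above both PcG libraries. LPS alone read 1.77 and 3.77, HMW alone 2.92 and 2.59, and the unstimulated control 3.28 and 1.83.

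Ifna2, one of the subtypes, had its start in a peak at chr4:88683397-88684146 with 5.65 and 5.17 CPM in PS, 1.48 and 2.1 in PcG, 0.933 and 2.44 in PL, and 0.658 and 1.52 in PH. It was 1.6 ± 0.37 higher in PS than in PcG (log2, adjusted p = 0.0267) and 2.28 ± 0.39 higher than in PH (7.53e-06). The Ifna5 start peak, chr4:88835268-88836138, read 3.83 and 4.85 in PS against 0.918 and 1.02 in PcG and 0.921 and 1.07 in PH, with 1.87 and 1.83 in PL. Here PL was nearer to PS than the other pairs were, and the difference from PL did not pass. Ifna4 (chr4:88841573-88842379) had 3.2 and 3.76 CPM in PS, 1.38 and 1.79 in PcG, 1.15 and 1.12 in PL, and 0.658 and 1.24 in PH; it passed against PL (1.61 ± 0.44 on the log2 scale, adjusted p = 0.0165) and PH (1.85 ± 0.43, 0.00145) but not against PcG. Ifna1 read 0.526 to 1.98 CPM over the 8 libraries (1.38 and 1.98 in PS) and did not pass (adjusted p = 0.68 in the joint test). Its difference for PS against PH was 0.79 ± 0.49 (log2), so at these low counts a response like that of the other α genes could be missed. With libraries thinned to equal depth, the Ifna2 and Ifna5 differences from PcG and the Ifna4 differences no longer passed.

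Across the interferon cluster (chr4:88517025-88885201) 63 peaks were tested and 18 differed among the pairs. Of the 63, PS was higher than PcG at 4, than PL at 20 and than PH at 8, and lower at none. Of the 18, 11 are a run of broad peaks over Ifnz and its predicted relatives, at 15.7 to 24.2 CPM in PS and 10.1 to 18 in PL; those genes are near-identical copies, so the reads behind each peak are uncertain.

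**Figure D2:**
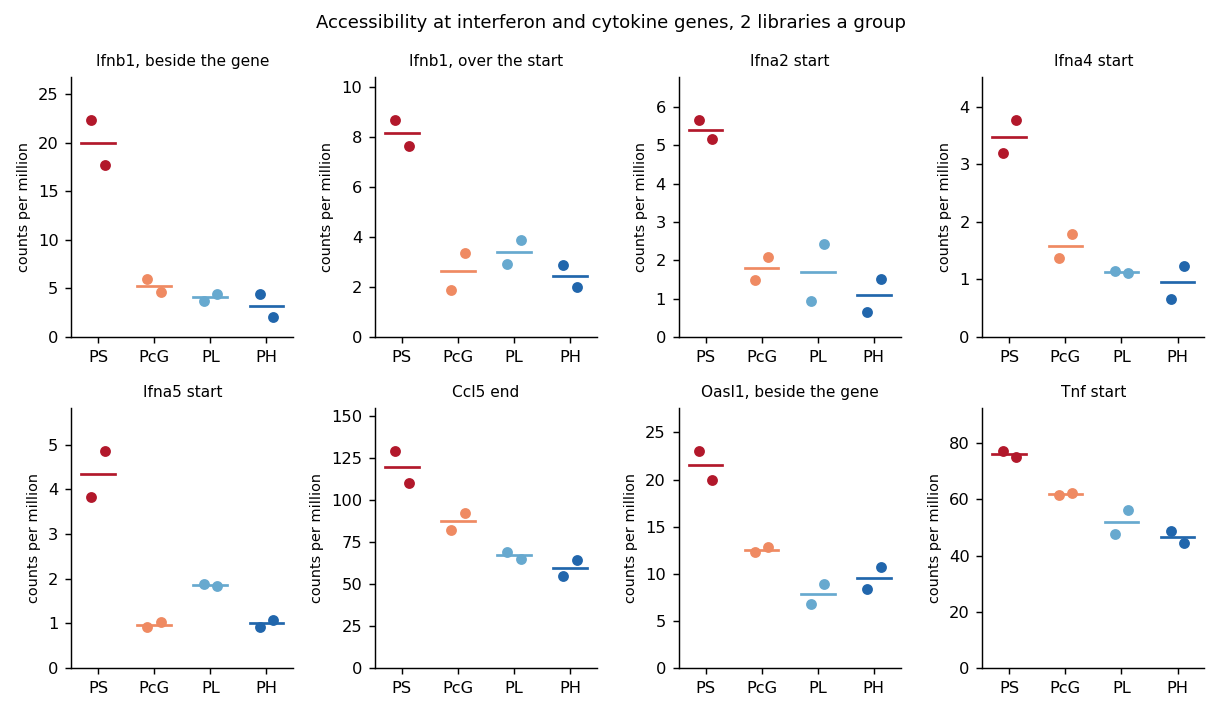
CPM (y axis, from 0) in the 2 libraries of each pair (points; bars are means) at interferon genes, Ccl5, Oasl1 and Tnf. PS is highest at all 8 peaks; at the peak beside Ifnb1 both PS libraries (22.3 and 17.7) exceed the rest (2.02 to 5.96).

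Genes downstream of interferon, read at 1 peak each, did not follow as a group. Of 20 antiviral effectors, the proteins that interferon induces to block viral replication, none differed between PS and PcG; against PL 1 was higher in PS (Oasl1) and 2 lower (Mx1 and Ifi44), and the median log2 difference was 0.03. At the Mx1 peak (chr16:97443785-97449053, over an end of Mx1, which RefSeq lists as a transcribed pseudogene in this strain, and 849 bases from Bace2) PL was highest with 59.6 and 52.5 CPM, against 30.5 and 25.6 in PS, 33.8 and 42.1 in PcG and 31 and 41.5 in PH. Ifi44 read 7.68 and 6.93 in PL and 4.08 and 3.47 in PS, and Isg20, an exonuclease, was lower in PcG (45.4 and 45.7) than in PH (55.9 and 58.6). Beside Oasl1, a peak at chr5:114938073-114940708 was higher in PS than in all 3 others, at 23 and 20 CPM against 12.3 and 12.8 in PcG and 6.75 to 10.7 in PL and PH. A broad peak in Rsad2 (chr12:26438731-26453446), 1 of the 20 genes, is not the peak read for it. That peak was higher in both PS and PcG than in both PL and PH, with a smallest log2 difference of 0.6. Reading each gene at 1 peak leaves out such peaks. The GTPases of the GBP and IRG families showed 1 difference in 12, Tgtp2, lower in PS than in PL.

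Of 7 chemokine genes that interferon and NF-κB induce, 2 passed in any comparison, Ccl5 and Cxcl10, and the median log2 difference of the list was 0.12 for PS against PcG and 0.04 for PS against PL. Ccl5, which recruits T cells and monocytes, has a broad peak over a gene end (chr11:83521831-83527834) with 129 and 110 CPM in PS, 82.2 and 92.4 in PcG, 69.1 and 65.1 in PL and 54.5 and 64.3 in PH. No PS or PcG library overlapped PL or PH, and PS exceeded PcG by 0.45 ± 0.1 (log2, adjusted p = 0.0157) and PH by 1 ± 0.1 (8.53e-15). PL and PH were not told apart there, and the step from PS to PcG did not pass without PS replicate 1 (0.33, adjusted p = 0.717), PcG replicate 1 or PcG replicate 2, nor with the DESeq2 Wald test. Cxcl10, a ligand of CXCR3, read 60 and 57.8 CPM in PS, 54.4 and 54.3 in PcG, 42.8 and 41.5 in PL and 43.9 and 47.6 in PH, and passed for PS against PL (0.48 ± 0.1 on the log2 scale, adjusted p = 0.000761) and PH (0.36 ± 0.1, 0.0108). Its window, printed for comparison with the interferon genes, carries 1 IRF match, again with the letters GAAAGTGAAA.
Cxcl10 (chr5:92348890-92349139, minus strand): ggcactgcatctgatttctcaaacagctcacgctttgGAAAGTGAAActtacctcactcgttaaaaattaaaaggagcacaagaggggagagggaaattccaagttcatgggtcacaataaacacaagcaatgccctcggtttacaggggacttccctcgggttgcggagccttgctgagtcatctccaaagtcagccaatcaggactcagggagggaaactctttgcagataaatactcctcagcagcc
The other 5 genes of this list did not pass in any comparison; Cxcl9 and Cxcl11 lay at 1.62 to 5.02 CPM. A second Ccl peak, over Ccl4 (chr11:83662136-83665073), was higher in PS than in all others, at 39.5 and 35.4 CPM against 22.5 and 28.2 in PcG and 18 to 21 in PL and PH.

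Cytokine genes and the NF-κB genes were called most often between PS and PH, the pairs with the most called peaks (6.87% of tested peaks), and some also between PcG and PH. Tnf, the early inflammatory cytokine, had 77.1 and 74.9 CPM in PS, 61.7 and 62.2 in PcG, 47.7 and 56.3 in PL and 48.6 and 44.3 in PH, 0.71 ± 0.1 higher in PS than in PH (log2, adjusted p = 6.76e-09). Tnf was also called higher in PS than in PL and in PcG than in PH. At Il6 PH alone was low, with 19.9 and 18.8 CPM against 23.8 to 30.9 in the other 6 libraries; it passed against PS (adjusted p = 0.00213) and PcG (0.00533) and not against PL. Il27 was higher in PS than in PH, and the remaining 12 of 15 cytokine genes, among them Il1b and Il12b, passed in no comparison. Of 13 NF-κB subunits and inhibitors 4 were higher in PS than in PH (Nfkb2, Rela, Nfkbia and Nfkbie) and none lower. Rela and Nfkbie were also higher in PcG than in PH. Nfkb2 read 93.5 and 100 CPM in PS against 66.8 and 76.6 in PH.

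Small promoter differences between PS and PH were widespread, which these list counts must be read against. Of 12529 peaks within 1 kb of a gene start 6.64% were called higher in PS than in PH and 1.27% lower, and their median log2 difference was 0.1 against -0.01 for the other peaks. The called ones near a start were small, at a median of 0.46 (log2) against 1.07 for those farther away. Among the gene lists, Tapbp, H2-K1 and H2-D1 (3 of 11 peaks of MHC class I presentation), H2-DMa (1 of 7 of class II), Jund and Maff (2 of 12 AP-1 and ATF factors), Dusp1, Zfp36 and Sbno2 (3 of 12 feedback genes), Stat5a (1 of 12 IRF and STAT factors) and Cd40, Cd80 and Tnfsf15 (3 of 13 genes of costimulation and migration) were higher in PS than in PH. Jund, Maff, H2-K1 and H2-DMa were also called higher in PcG than in PH, as was H2-T23 of MHC class I presentation. In lists of 7 to 13 peaks 1 called peak already exceeds a share of 6.64%. Listed genes were also read at their highest peak, which was not so for the 12529 peaks. The shares are thus not directly comparable. Of the sensors, Tlr9, the endosomal DNA receptor, was higher in PS (18.8 and 23.3 CPM) than in PL (10.8 and 14) and PH (12 and 12.1), and Dhx58, a RIG-I relative, was lower in PH than in PS and PcG. Of 11 surface receptor and adaptor genes only Cd14, the LPS co-receptor, passed, lower in PS than in PH. The peak over the start of Tnfsf15, a TNF family ligand, read 28.9 and 27.5 in PS against 16 and 16.2 in PL and 20.2 and 17 in PH, and 2 further broad peaks of the gene were higher in PS than in all others. Fscn1, an actin bundler of mature dendritic cells, was the 1 gene of its list lower in PS than in PcG and PL.

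Of the 75 peaks higher in PS, 63 were farther than 1 kb from a start and 12 (16%) were within it. Among all tested peaks 10.5% were within 1 kb of a start, so a distant position is not particular to the PS peaks. The one with the largest smallest difference, in Tmem245 (chr4:56891621-56892217), read 11.6 and 12.5 CPM in PS and 1.58 to 3.32 in all others, a log2 difference of 2.03 ± 0.26 from PcG (adjusted p = 1.05e-08). A neighbouring peak of the same gene was also higher in PS. Beside Sdc4, a cell surface proteoglycan, PS read 6.21 and 6.06 CPM and PcG 1.17 and 0.956, the highest PS over PcG difference among called peaks with a mean of at least 2 CPM and no overlap of libraries (2.51 ± 0.4 on the log2 scale, adjusted p = 3.08e-05). Of the 38 lower peaks, one 12574 bases from Birc3, an inhibitor of apoptosis, read 0.878 and 1.41 in PS and 2.55 to 5.5 elsewhere. One in Abca1, the cholesterol exporter, read 1.13 and 0.848 in PS and 1.94 to 4.55 elsewhere.

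With LPS as the partner, the peaks were few and gathered at 1 end of Nos2. Nos2 encodes inducible nitric oxide synthase, and 4 of the 6 peaks higher in PL than in every other pair lay at the end of the gene next to Lgals9 (chr11:78954960-78963606). Those 6 became 1 without PcG replicate 1 or PH replicate 1, 2 without PcG replicate 2 and 3 without PL replicate 2. The largest, chr11:78959292-78963606, overlaps both Nos2 and Lgals9. It read 27.4 and 35.5 CPM in PL, 20.8 and 20.5 in PcG, 9.93 and 11.3 in PH, and 7.9 and 6.62 in PS. All 4 pairs were told apart there: PL exceeded PcG by 0.6 ± 0.16 (log2, adjusted p = 0.043), PcG exceeded PH by 0.96 ± 0.17 (7.33e-05), and PS was below PH by 0.56 ± 0.19 (0.0459). The steps from PL to PcG and from PH to PS did not pass with the DESeq2 Wald test or with any 1 of their libraries left out, the smallest being 0.42 for PL over PcG without PL replicate 2 (adjusted p = 0.463). The peak at chr11:78956306-78957563 had 7.25 and 11 CPM in PL against 1.45 to 3.67 in the other 6 libraries, 2.1 ± 0.33 above PH (adjusted p = 3.83e-05). Of 18 peaks over Nos2 and 5 kb to either side 8 differed among the pairs, and PL was higher than PS at 8, than PH at 5 and than PcG at 4. Which end of Nos2 holds its start is not given in the sources used here, so these peaks are not placed at its promoter. The peak over the other end of the gene (chr11:78920299-78921213) did not differ (adjusted p = 0.257 in the joint test). It read 11.1 and 16 CPM in PL, 12 and 12 in PS, 13.6 and 15.5 in PcG and 10.3 and 10.1 in PH. Without PAM, LPS was also highest at the largest peak (21.7 CPM, against 9.48 with HMW, 7.08 with cGAMP and 4.15 with SeV), and PAM alone gave 2.79.

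**Figure D3:**
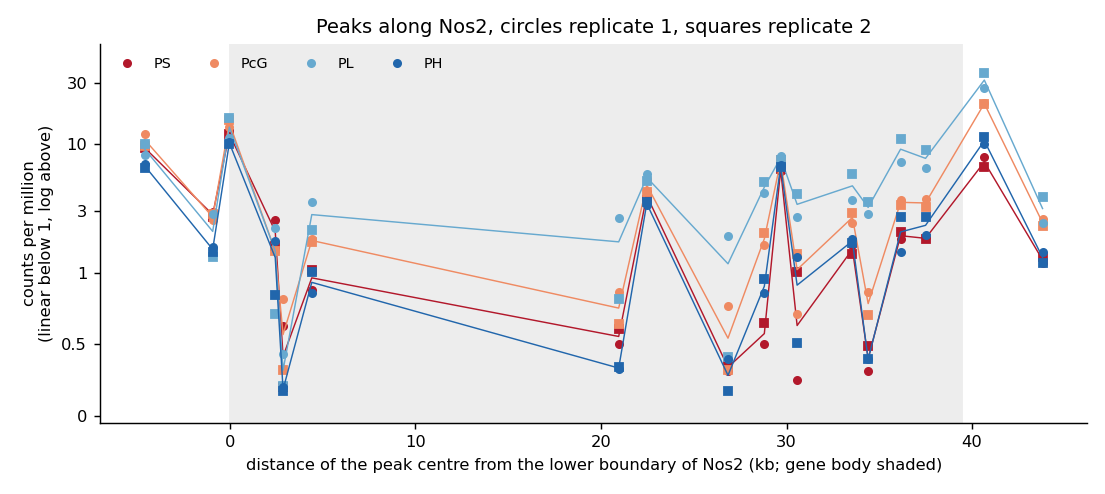
CPM (y axis, linear below 1 and logarithmic above) at the 18 tested peaks along Nos2 against the distance of the peak centre from the gene's lower boundary (x axis, kb); points are single libraries and lines join the pair means. PL lies above the other pairs toward the right-hand end, where it reads 27.4 and 35.5 CPM.

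The other PL peaks were at Saa3 and the Mx1 peak above. Saa3, an acute-phase serum amyloid A, is overlapped by a peak (chr7:46710262-46713566) at 42.6 and 37.9 CPM in PL, 23.3 and 22.9 in PcG, 18.2 and 24 in PH and 14.8 and 13.6 in PS. Both PL libraries were above the other 6, by 0.93 ± 0.14 over PH (log2, adjusted p = 1.06e-05) and 1.51 ± 0.14 over PS (3.89e-17). PL was lowest at 3 peaks, in Dnase2b and Uox (3.3 and 2.65 CPM against 4.72 to 7.97), beside Hcfc2 (6.75 and 5.09 against 10.5 to 13.1) and near Ptger2 (12.6 and 13.8 against 17.7 to 23.7). At the Mx1 peak LPS alone had a mean of 64.8 CPM. Arg1, the arginase that competes with Nos2 for its substrate, was lower in PS (5.08 and 6.18) and PcG (6.32 and 4.59) than in PH (9.21 and 8.93).

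The HMW partner left the neutrophil chemokine Cxcl3 more open than the others. Its promoter is shown for its match to the NF-κB element (GGGA, any base, TTTCC, on either strand; in capitals), which 0.472% of the 9966 promoters hold.
Cxcl3 (chr5:90785851-90786100, plus strand): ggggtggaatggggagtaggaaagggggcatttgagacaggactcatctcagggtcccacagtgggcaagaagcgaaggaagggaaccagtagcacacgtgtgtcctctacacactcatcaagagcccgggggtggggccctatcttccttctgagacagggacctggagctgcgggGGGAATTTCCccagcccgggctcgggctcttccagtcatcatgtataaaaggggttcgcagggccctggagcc
The 15 PH-high peaks became 0 without PL replicate 2 or PH replicate 2, 1 without PH replicate 1, 4 without PL replicate 1, 6 without PcG replicate 1, 9 without PS replicate 2, and 36 with the DESeq2 Wald test.

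Within Cxcl3 (chr5:90788093-90790032) PH read 14.1 and 12.9 CPM and the other 6 libraries 5.25 to 7.84, with PH higher than PS by 1.2 ± 0.21 (log2, adjusted p = 6e-06), than PcG by 0.88 ± 0.2 (0.004) and than PL by 0.96 ± 0.21 (0.0332). The difference from PL did not pass with any 1 of its 4 libraries left out (adjusted p of 0.161 to 0.338). The neutrophil markers S100a8 and Camp were also highest in PH in sum, at 39 to 39.3 CPM, and their part here was not tested. Over the Cxcl3 start PH was also highest, at 9.61 and 10 CPM against 5.21 and 5.77 in PS and 5.2 and 5.1 in PcG, while PL (7.97 and 5.4) was not told apart from PH. With PAM alone these peaks were at 20.3 and 25.3 and at 18.2 and 20.2 CPM, above every pair. Cxcl2, its neighbour, also read highest in PH, with 71.8 and 72.6 CPM and 56.5 to 62.5 in the other libraries; it passed the joint test (adjusted p = 0.0439) but no single comparison. Cxcl1 did not differ (adjusted p = 0.602 in the joint test).

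The 15 PH peaks as a set had this shape. Their median level was 17 and 17.4 CPM in PH and 8.24 to 10 in the libraries of PS, PcG and PL, but 22.6 and 24.7 with PAM alone and 24 and 20.7 in the unstimulated control. PH was thus nearer to cells without a second partner at these 15 peaks than the other pairs were. Among them, a peak in Pax6 read 17.3 and 16.2 in PH and 6.17 to 9.72 elsewhere, and one in Dlg2 10.5 and 10.4 against 4.14 to 6.06. Of the 4 PH-low peaks, the one in Ints8 (chr4:11240285-11241174) read 4.93 and 5.34 in PH against 15.7 and 16.8 in PS, 11.8 and 11.8 in PcG and 12.3 and 11 in PL; PAM alone gave 1.98 and 2.31 there.

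cGAMP gave no peak higher than in the other 3 pairs. Its 3 low peaks were over the start of Vgll3, a transcription cofactor (3.21 and 2.81 CPM against 5.69 to 8.16), in Lrrc29 (2.29 and 2.74 against 4.88 to 6.71) and in Smyd2, a lysine methyltransferase (18.5 and 18.2 against 23.5 to 29.6). Vgll3 passed against PS by 1.18 ± 0.24 (log2, adjusted p = 0.00575), with no overlap of libraries at any of the 3 peaks; without PS replicate 1 the difference was 0.91 (adjusted p = 0.509).

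The 369 peaks that split the pairs into PS with PcG and PL with PH were mostly distant from starts. Only 18 of the 272 higher peaks (6.62%) and 4 of the 97 lower ones (4.12%) lay within 1 kb of a start, against 10.5% of tested peaks. The smallest of the 4 differences had a median of 0.9 (log2) among the higher and -0.79 among the lower peaks. Among peaks with a mean of at least 2 CPM over the 8 libraries, the one with the largest such difference lay 2734 bases from Tnfrsf13b (chr11:61122455-61123549), a receptor of the BAFF and APRIL cytokines. There PS read 13.6 and 14.1 CPM, PcG 8 and 7.91, PL 1.65 and 1.63, and PH 0.658 and 1.52. PS exceeded PH by 3.62 ± 0.28 (log2, adjusted p = 1.06e-22) and PcG exceeded PL by 2.27 ± 0.3 (1.82e-08), while PS and PcG were not told apart (0.79 ± 0.22, adjusted p = 0.128). In Slc29a3, a lysosomal nucleoside transporter, the values were 8.66 and 11.6 in PS, 7.7 and 8.03 in PcG, 1.87 and 2.24 in PL, and 1.97 and 1.52 in PH. Similar peaks lay in Cacnb4, Glis3 and Pgm5 and 11877 bases from Vps13b, all with PL and PH at 0.674 to 1.58 CPM. Gene starts inside the higher peaks included those of Gpnmb, Acp5, Hexa and Ftl1, genes of lysosomes or iron storage, of Ppp1r15a, which restarts translation after stress, and of the signalling adaptor Traf3; these names were picked after the values were seen, from 14 peaks that hold a start. On the lower side, a peak in Nfxl1 read 1.44 and 1.17 in PS, 2.19 and 1.53 in PcG, 5.74 and 3.46 in PL and 5.92 and 6.85 in PH. A distal peak 274511 bases from Pcdh7 had 0.51 to 1.29 CPM in PS and PcG and 3.06 to 3.73 in PL and PH.

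The same order was read in libraries outside the 4 pairs, which entered none of the differences that chose these peaks but shared the model's estimate of spread. In cells given 1 partner without PAM, 263 of the 272 higher peaks (96.7%) had both SeV and cGAMP above both LPS and HMW, against 22% of tested peaks, and 84 of the 97 lower peaks (86.6%) had the reverse, against 23.9%. In all 4 of those comparisons 143 (52.6%) and 32 (33%) were called, against 0.776% and 0.514% of tested peaks. In the triplets, PAM with SeV and cGAMP exceeded PAM with LPS and HMW at 271 of 272 (against 49.5% of tested peaks) and was below it at 97 of 97 (against 50.5%). Median levels at the 272 peaks were 11.4 and 12.1 CPM in PS, 10.5 and 10.6 in PcG, 5.02 and 5.04 in PL and 5.36 and 4.38 in PH; they were 11.2 and 12 with SeV alone, 10.7 and 11.1 with cGAMP alone, 4.8 and 4.91 with LPS alone, 4.92 and 5.26 with HMW alone and 3.74 and 3.58 with PAM alone. The 75 PS peaks kept their order without PAM at 56 (74.7%, against 23.9% of tested peaks) and the 38 lower ones at 29 (76.3%, against 25%). The PH-high peaks kept it at 14 of 15 (against 27.3%). The PL-high peaks kept it at 6 of 6 (against 25.9% of tested peaks), but 4 of these are neighbours at Nos2 and not separate loci. For the small low sets it was 2 of 3 PcG-low (against 24.5%), 1 of 3 PL-low (against 24.9%) and 2 of 4 PH-low peaks (against 25.6%).

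**Figure D4:**
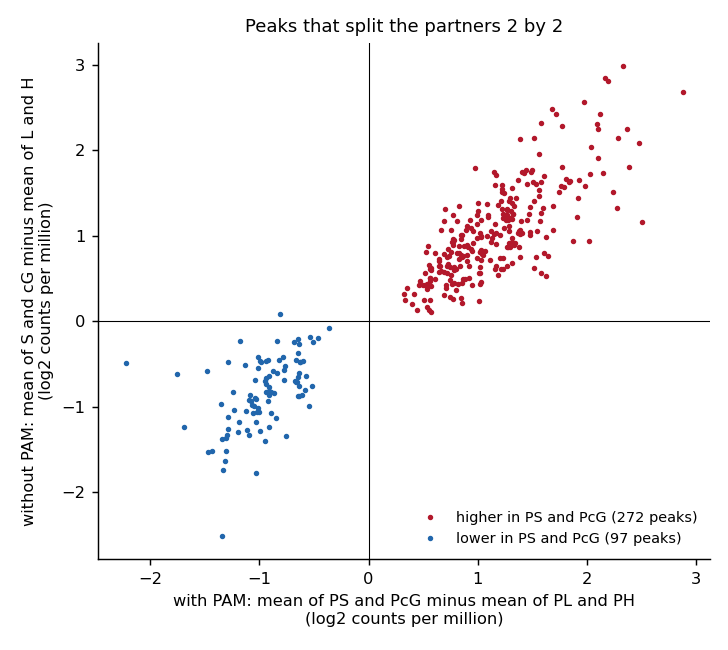
Each point is 1 of the 369 peaks that split the pairs: x axis, the difference with PAM (mean of PS and PcG minus mean of PL and PH, log2 CPM), which chose the peaks; y axis, the same difference in the libraries without PAM. The higher peaks lie above 0 and the lower ones nearly all below it.

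**Figure D5:**
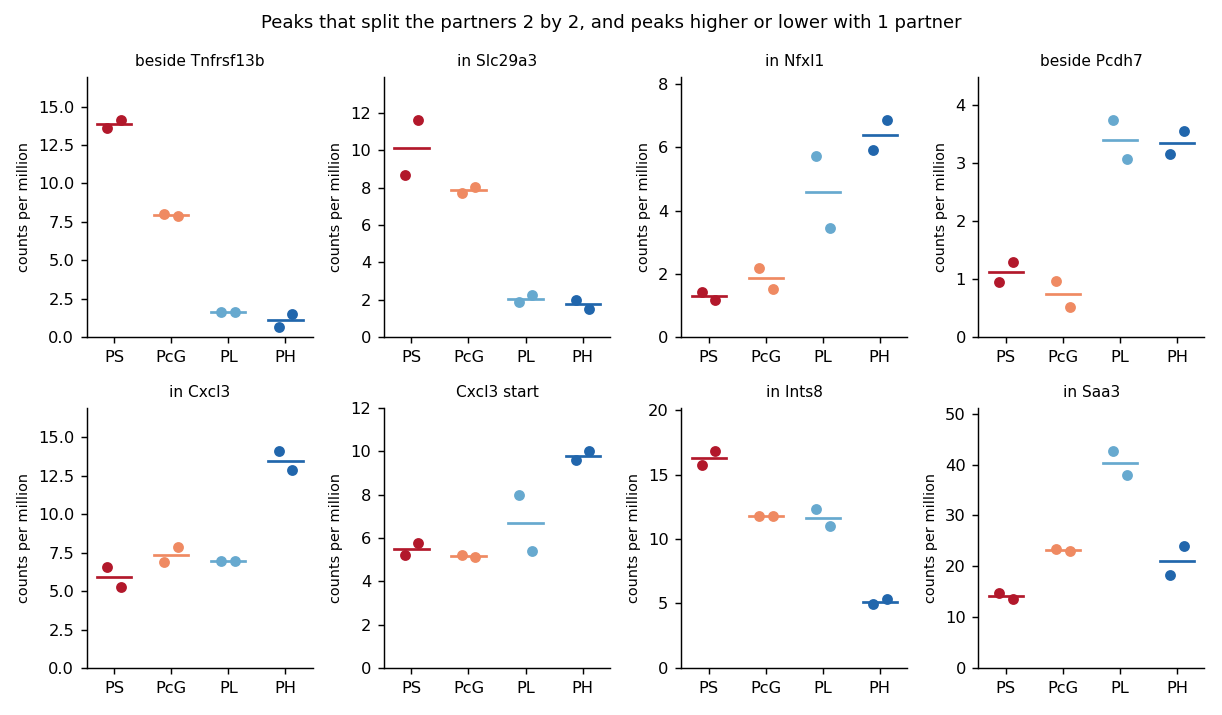
CPM (y axis, from 0) in the 2 libraries of each pair (points; bars are means) at 4 peaks that split the pairs and 4 that set 1 pair apart. Beside Tnfrsf13b, PS (13.6 and 14.1) and PcG (8 and 7.91) stand above PL and PH (0.658 to 1.65); in Cxcl3 only PH is high (14.1 and 12.9).

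Partner differences were larger without PAM. Called peaks numbered 1134 for SeV against cGAMP (0.949%), 11760 for SeV against LPS (9.84%), 10818 for SeV against HMW (9.06%), 8632 for cGAMP against LPS (7.23%), 8792 for cGAMP against HMW (7.36%) and 4430 for LPS against HMW (3.71%), more than for the matching pair with PAM in each of the 6. The repeatable size fell with PAM as well, from 0.257 to 0.127 (log2 CPM squared) between SeV and LPS and from 0.122 to 0.0311 between LPS and HMW. A direct test of whether a partner difference changes with PAM called 1139 peaks for LPS against HMW (0.953%), 1042 for cGAMP against LPS (0.872%) and 743 for SeV against LPS (0.622%), but 145 for SeV against HMW (0.121%), 113 for cGAMP against HMW (0.0946%) and 68 for SeV against cGAMP (0.0569%). So the 3 comparisons with LPS held most of the changes. These 3 share the same PL and LPS libraries and are not independent of each other. No values with a library left out are given for the tests of change. At the 1139 peaks the difference was smaller with PAM at 1008 (88.5%), with a median size of 1.02 (log2) without PAM and 0.29 with it. Of these peaks 949 were called without PAM and 13 with it. The test chose them for unlike differences in the same libraries, so the gap in size and calls is partly set by that choice.

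Called directions with PAM matched the single ligands in most cases. Of the peaks higher in PS than in PH 95% were higher with SeV than with HMW alone (against 49% of tested peaks), 2121 of 4571 were also called there and 2 were called the other way. For PcG against PL the share was 92% of the higher (against 49.1%) and 82.4% of the lower peaks (against 50.9%), and for PL against PH 13 of 17 (against 49.9%) and 26 of 35 (against 50.1%). The reversals were few: over the 12 sets of called peaks at most 10 were called in the opposite direction without PAM.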

How the data were processed

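ATAC-seq counts per peak were taken for 36 libraries in 18 groups of 2. The deposited table holds raw counts for 119751 peaks; the submitters' processing notes name Bowtie2 2.2.9, MACS2 (version given as 1.4), bedtools, featureCounts and mm10. Whether peaks were called on pooled libraries, how duplicates were treated and whether read ends were shifted is not given in the sources used here.

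The peak over the mitochondrial genome was left out, and 119464 peaks passed edgeR's filter (minimum count 10). One edgeR 4.0.16 quasi-likelihood model was fitted over all libraries with TMM factors and 18 residual degrees of freedom, and p-values were adjusted by Benjamini-Hochberg over all tested peaks. R 4.3.3, limma 3.58.1 and DESeq2 1.42.0 were also used, and the model was checked on simulated data. A gene was read at its highest peak within 1 kb of a RefSeq start (GRCm38.p6), otherwise at either gene end; 186 of 190 listed genes had one. Alternatives covered scaling, filter, test, samples in the fit, replicate block, thinning and leaving out each library.

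Named peaks, outside chromosome 18, with a mean of at least 2 CPM over the 8 libraries and no overlap between the libraries compared, were the 2 highest and 2 lowest called differences per comparison, up to 4 high and 2 low partner-specific peaks per pair and, chosen later, 6 high and 4 low split peaks. Without those limits came up to 4 genes per list with the lowest joint p, and 10 fixed genes; others are said to be chosen later or come from a region or list described. The members and lists were chosen with earlier results of these data known.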

Additional observations from a re-analysis of the deposited data

Results flagged for a closer look

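Tests of whether a partner difference changes with PAM found peaks in all 6 comparisons: 68 for SeV against cGAMP, 743 for SeV against LPS, 145 for SeV against HMW, 1042 for cGAMP against LPS, 113 for cGAMP against HMW and 1139 for LPS against HMW (edgeR quasi-likelihood, Benjamini-Hochberg). The values that follow are the log2 difference with PAM minus that without PAM, at peaks named by rule.

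At the largest Nos2 peak, which also overlaps Lgals9, it was 1.02 for cGAMP against LPS and 1.41 for cGAMP against HMW. Beside Hcfc2 it was 1.25 for SeV against LPS, 1.08 for cGAMP against LPS and -1.22 for LPS against HMW. In Dlg2 it was 1.52 for cGAMP against LPS and -1.49 for LPS against HMW. In Mid1 it was 1.66 for cGAMP against HMW and 1.49 for LPS against HMW, and beside Tmem38b 2.36 for LPS against HMW.

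For cGAMP against LPS it was -1.73 in Tmem245, -2.82 beside Slc35f5, 2.47 in Abca1, -1.68 at the peak read for Cxcl11 (over Art3) and -0.55 at Hif1a. For SeV against LPS it was 1.05 at Tlr9 and 0.75 at the peak shared by Ccl3 and Ccl4. At Ccl5 it was -0.61 for SeV against HMW and -0.74 for cGAMP against HMW.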

How the results depend on the processing

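No named difference changed sign under any alternative run. With the replicate block, counts stayed within 1.5 times (for example 148 for PS against PcG and 8099 for PS against PH) and no named call was lost; same-numbered libraries did not deviate together (r of -0.0191 to 0.00562), so the numbers are not a pairing. Depth limits the calls: thinned to 8181254 counts, 60, 2763, 5020, 702 and 1704 peaks passed for PS-PcG, PS-PL, PS-PH, PcG-PL and PcG-PH and 5195 jointly, with 38 PS-high, 8 PS-low, 0 PcG-low, 3 PL-high and 2 PH-low peaks and splits of 148 and 47. With only the 8 libraries in the fit, PS-PcG gave 312, PcG-PL 1873, PcG-PH 5058 and PL-PH 172; single-pair peaks (high, low) were 124 and 77 for PS, 2 and 5 for PcG, 15 and 14 for PL, 44 and 23 for PH, and splits 413 and 241. The DESeq2 Wald test gave 141 for PL-PH, 13 PL-low, 36 PH-high and 11 PH-low peaks. Total-count scaling gave 1729 for PcG-PL, splits of 534 and 52, 1 PcG-high, 1 PcG-low, 3 PL-high and 7 PH-high peaks, and for the change with PAM 1361 (SeV-LPS), 1882 (cGAMP-LPS), 73 (cGAMP-HMW) and 2011 (LPS-HMW). It moved the median over all peaks (log2) to 0.21, 0.16 and -0.15 for the cGAMP-LPS, SeV-LPS and LPS-HMW changes and to 0.14 for LPS-HMW, and the share of called peaks higher in the first from 61.9% to 87% for LPS-HMW, 56.3% to 69.7% for SeV-HMW, 45.9% to 29.6% for cGAMP-LPS and 57.4% to 67.8% for cGAMP-HMW; for the change with PAM it went from 20.8% to 6.96% (LPS-HMW), 76.6% to 92.9% (SeV-LPS), 23.5% to 10.3% (SeV-cGAMP), 46% to 63% (cGAMP-HMW) and 78.2% to 96.3% (cGAMP-LPS). The cause was not tested.

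Leaving out 1 library leaves 1 in its group, which is then assumed to vary like the others. Ranges were 21 to 47 for PS-PcG, 1305 to 2081 for PS-PL, 2609 to 4767 for PS-PH, 240 to 518 for PcG-PL, 646 to 1597 for PcG-PH, 3 to 59 for PL-PH and 4391 to 7117 jointly; 14 to 73 PS-high, 2 to 34 PS-low, 0 to 2 PcG-low, 1 to 6 PL-high, 0 to 6 PL-low, 0 to 14 PH-high and 1 to 11 PH-low peaks; and splits of 73 to 214 and 22 to 81.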

Other observations

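Further peaks named by rule showed these levels. A peak 58757 bases from Emb, a cell adhesion protein, read 7.84 and 6.91 CPM in PS, 1.94 and 2.87 in PcG, 0.431 and 1.02 in PL, and 0.987 and 0.562 in PH. In Itgb3, the integrin β3 gene, PS (3.51 and 3.84) and PcG (3.93 and 3.38) were level, with 0.502 and 1.02 in PL and 0.786 and 1.45 in PH. Near Kif2a, a microtubule motor, PH read 16.2 and 17.5 and the other 6 libraries 7.44 to 10.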
